A study of Mus musculus with 8 samples.

Results

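The Myc and Mxd network is a set of related transcription factors, and its 10 genes Myc, Mycn, Mycl, Max, Mxd1, Mxd3, Mxd4, Mxi1, Mnt and Mlx were taken by gene symbol from the 24419 genes of the count table. All 10 were found, and all 10 passed the filter on low counts that left 15875 genes for testing. RNA-seq was performed on 8 libraries, 2 from each of 4 mouse models of endometrial cancer. In every model, uterus organoids from CAG-Cas9-EGFP mice, in which Cas9 is present in all cells, were changed with viral vectors, among them one with an sgRNA against Trp53, and were then transplanted into the uterus of adult female nude mice, which lack most T cells. TPM organoids also received a Myc cDNA together with luciferase from a retroviral vector. TPMCa organoids carried in addition a Pik3ca E545K cDNA, and TPMR1 organoids an sgRNA against Pik3r1, so that both had an alteration of the PI3K pathway on top of introduced Myc. TPK organoids received a different cDNA and no Myc. The libraries were labelled as tumor organoids, whereas the methods of the study speak of tumor tissue, and the methods give the libraries of a model as separate mice. The methods give the CAG-Cas9-EGFP mice as females of 8 to 10 weeks and the nude recipients as BALB/cA-nu females of 8 weeks.

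Proteins of this network bind DNA as pairs. Myc, Mycn and Mycl pair with Max and activate genes of growth, ribosome production and nucleotide synthesis, and Myc is among the most often amplified genes in human cancers, including endometrial cancer. The Mxd proteins, Mxi1 and Mnt compete for the same partner and bring corepressors to the same DNA element, the E-box CACGTG, while Mlx joins a neighbouring arm of the network to the glucose-sensing Mondo proteins. In stratified epithelia, the change from dividing to differentiating cells goes along with a change from Myc to Mxd1.

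Total counts ranged from 15748396 to 26943611 per library. Levels are given as CPM, which are counts relative to library depth after TMM scaling, and 3 counts, taken as the limit of detection, corresponded to 0.116 to 0.198 CPM. Markers of general epithelium (6 genes) summed to 3236 to 4963 CPM in TPK and 2941 to 5498 CPM in TPM, but to 23.7 to 73.3 CPM in TPMCa and 6.47 to 27.4 CPM in TPMR1. Markers of squamous epithelium (8 genes) summed to 12768 to 20127 CPM in TPK, 4084 to 20064 CPM in TPM, 5.01 to 9.25 CPM in TPMCa and 3.45 to 13.2 CPM in TPMR1, with Krt1 at 0 in both TPMCa libraries and Krt5, Krt6a, Krt1 and Dsg3 at 0 in both TPMR1 libraries. The epithelial markers of the labelled tissue were therefore low or absent in 2 of the 4 models. Fibroblast markers (6 genes) summed to 876 to 16595 CPM over the 8 libraries, with TPMR1 replicate 1 lowest. In bulk RNA, fewer cells of a type and less RNA per cell cannot be told apart.

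In GRCm38, the annotation placed Myc at chr15:61985391-61990374 (+), Mycn at chr12:12936093-12941914 (-) and Mycl at chr4:122995652-123002485 (+). Max, the shared partner, was at chr12:76937269-76962201 (-). Among the repressors, Mxd1 was at chr6:86647042-86669161 (-), Mxd3 at chr13:55325168-55329823 (-), Mxd4 at chr5:34173883-34187720 (-), Mxi1 at chr19:53310518-53375810 (+) and Mnt at chr11:74830920-74845725 (+). Mlx was at chr11:101087277-101092207 (+). Exons of Mlx overlap Psmc3ip and exons of Mxd3 overlap Prelid1, each on the opposite strand. Exons of Mxi1 overlap Gm10197 and exons of Mxd4 overlap Gm42846, also on the opposite strand, and these neighbours are not in the count table. As no strand setting was given for the counting, reads of such neighbours cannot be told apart from reads of Mlx, Mxd3, Mxi1 and Mxd4. In the same way, the count of Myc joins transcripts of the resident gene with those of the introduced cDNA.

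Because the network acts on CACGTG, this hexamer was searched in the promoter windows of the members (RefSeq, GRCm38.p6, 250 bases before to 50 bases after the start of a transcript). The hexamer reads the same on both strands. A window was found for 9 of the 10 members, all but Myc, and 4 of these 9 (44.4%) held the hexamer, against 8.09% of all 27025 genes with a window. The 4 are shown since they place the DNA element bound by the network beside the genes of the network, with 20 bases on either side and the hexamer in capitals, on the strand of the gene.
Max, chr12:76962226-76962271 (-): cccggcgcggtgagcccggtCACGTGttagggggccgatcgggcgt
Mlx, chr11:101087230-101087275 (+): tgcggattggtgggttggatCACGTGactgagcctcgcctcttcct
Mnt, chr11:74830781-74830826 (+): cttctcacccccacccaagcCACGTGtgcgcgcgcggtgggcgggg
Mxd4, chr5:34187904-34187949 (-): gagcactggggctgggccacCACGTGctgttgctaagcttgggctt
The hexamer began 3 bases before the start in Max, 40 bases in Mlx, 123 bases in Mnt and 219 bases in Mxd4. It was not among the letters of the windows of Mxd1, Mxd3, Mxi1, Mycl and Mycn. These matches describe the letters only, and binding was not measured.

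The first comparison set the 3 models with introduced Myc against TPK, in one edgeR quasi-likelihood fit of all 8 libraries. TPK also carries its own cDNA, so introduced Myc and the absence of that cDNA cannot be told apart here or in the gene lists below. Epithelial markers were also low in TPMCa and TPMR1, and their part in this comparison was not tested. Myc was higher than TPK in all 6 libraries of these models, the repressors Mxi1 and Mnt also stood above both TPK libraries, and Mycl was low in TPMCa and TPMR1. With 2 libraries a model, 0 of the 10 members reached an adjusted p under 0.05 in edgeR, where 7.28% of all genes did. At an unadjusted p under 0.05, edgeR gave 3 of the 10 (Myc, Mycl and Mxi1) beside 25.6% of all genes, and DESeq2 gave 1 of 10 at its adjusted p (Myc) beside 18.9% of all genes. The threshold of the study was an unadjusted p under 0.05 with a log2 fold change beyond 1 in size. It was used there with DESeq2, for TPK or TPM against TPMCa and TPMR1. Applied throughout this report to the edgeR values, it gave 2 of 10 here beside 18.4% of all genes. These shares of the members lay near those of all genes or under them, and levels and intervals are given for each.

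Myc, the gene that was introduced, was at 154 and 92.8 CPM in the TPK libraries. It was at 772 and 1767 CPM in TPM, 3075 and 324 CPM in TPMCa, and 606 and 466 CPM in TPMR1. Every library with introduced Myc was thus above both TPK libraries, and the lowest of them, TPMCa replicate 2, was closest to TPK. Both TPM libraries were above both TPMR1 libraries, TPMCa spanned the range of these models, and the highest and lowest of their 6 libraries came from the same model, TPMCa, in which replicate 1 was 9.51-fold above replicate 2. The ratio of the higher to the lower library was 1.65 in TPK, 2.29 in TPM and 1.30 in TPMR1. The mean of the 3 models exceeded TPK by 3.09 on the log2 scale (8.52-fold, SE 0.94, 95% interval 0.85 to 5.33, n = 6 and 2, edgeR adjusted p = 0.101). Without TPMCa replicate 2 the difference was 3.37 with an edgeR adjusted p of 0.0304, and DESeq2 gave 3.12 with an adjusted p of 0.000609. Against TPK alone, TPM differed by 3.37 (SE 1.03), TPMCa by 3.79 (SE 1.05) and TPMR1 by 2.12 (SE 0.98), comparisons that share the TPK libraries. The edgeR adjusted p was 0.668, 0.0804 and 0.200 in that order. In TPM against TPK, 0 of 10 members and 0% of all genes passed in edgeR. There, 2 members (Myc and Mycn) and 7.17% of all genes had an unadjusted p under 0.05, DESeq2 called 1 member (Myc) and 1.57% of all genes, and the threshold of the study gave 2 members and 5.28% of all genes.

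**Figure D1:**
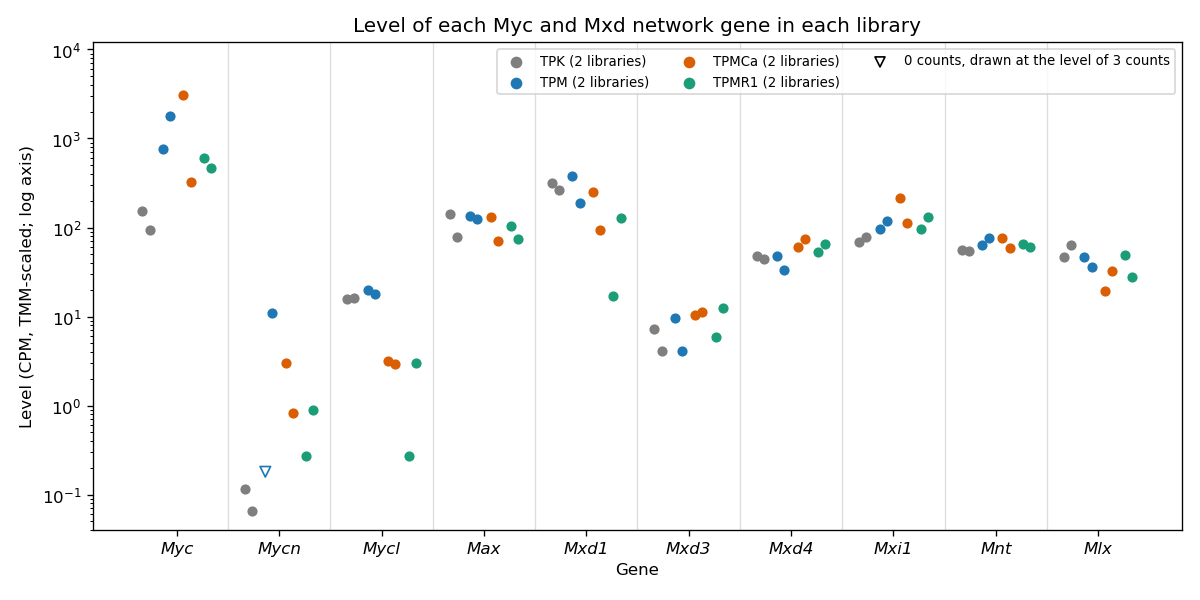
Level of each of the 10 genes in each of the 8 libraries, in CPM on a log axis, with points coloured by model and replicate 1 left of replicate 2. Open triangles mark 0 counts and are drawn at the level of 3 counts. Myc was above both TPK libraries in all 6 libraries with introduced Myc, Mycl was below all TPK and TPM libraries in the 4 TPMCa and TPMR1 libraries, and Max stayed between 71.5 and 141 CPM.

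Mycn, the relative of Myc known from neuroblastoma and from embryonic tissue, was close to the limit of detection in TPK with 2 counts and 1 count. It had 0 and 193 counts in the TPM libraries, 48 and 15 counts in TPMCa, and 7 and 16 counts in TPMR1. In CPM, TPM replicate 2 at 11 stood apart, as the next library, TPMCa replicate 1, was at 3.04 and the other libraries were under 1. The summed counts were above those of TPK by a ratio of 61.6 in TPM (95% counting interval 20.8 to 302), 20.3 in TPMCa (6.64 to 101) and 5.72 in TPMR1 (1.73 to 29.7), where the intervals cover counting error only and not the spread between mice. The edgeR fit gave 4.23 for the mean of the 3 models against TPK (SE 2.17, adjusted p = 0.277), a value that depends on the prior count since TPK was at the floor. Without TPM replicate 2, the fitted difference of TPM from TPK turned from 5.82 to -3.83.

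Mycl, the remaining activator, known from small cell lung cancer and from dendritic cells, was of like level in TPK and TPM and lay lower in the other models. It was at 15.6 and 16.2 CPM in TPK and at 19.7 and 18.1 CPM in TPM. It was at 3.17 and 2.95 CPM in TPMCa and at 0.271 and 3.0 CPM in TPMR1. The 4 libraries with a PI3K alteration lay below the other 4 with no overlap, and TPMR1 replicate 1 was lowest with 7 counts. This grouping was chosen after the values were seen, and 14.8% of all genes showed the same separation, beside 1 of the 10 members. The 4 libraries below were those with epithelial markers at 6.47 to 73.3 CPM, against 2941 to 5498 CPM in TPK and TPM, and the part of the epithelial share in the level of Mycl was not tested.

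The difference of Mycl from TPM was -2.62 in TPMCa (SE 0.96, 95% interval -4.90 to -0.34, edgeR adjusted p = 0.178) and -3.54 in TPMR1 (SE 0.997, 95% interval -5.92 to -1.16, edgeR adjusted p = 0.0961). Among the members, 0 of 10 passed in either comparison in edgeR, where 3.48% and 5.58% of all genes passed. At an unadjusted p under 0.05, edgeR gave 2 members (Mycl and Mxd4) in TPMCa against TPM, with 22.1% of all genes, and 1 (Mycl) in TPMR1 against TPM, with 23.1% of all genes. DESeq2 called 1 member, Mycl, in both, with adjusted p of 0.0336 and 0.00173, beside 16.1% and 17.0% of all genes, and the threshold of the study likewise gave 1 in each, beside 18.9% and 20.1%. In edgeR, Mycl passed in TPMCa against TPM when only these models were fitted (adjusted p = 0.0322) and when TPMR1 replicate 1 or replicate 2 was left out (0.0130 and 0.0134). For TPMR1 against TPM it passed without TPMR1 replicate 1 (-2.65, adjusted p = 0.0434) and without TPMR1 replicate 2 (-6.09, adjusted p = 0.00575). Against TPK, Mycl differed by -2.38 in TPMCa (SE 0.95, edgeR adjusted p = 0.165) and by -3.29 in TPMR1 (SE 0.99, edgeR adjusted p = 0.0804), while TPM and TPK differed by 0.25 (SE 0.90). With TPMR1 replicate 1 or replicate 2 left out, the comparison of Mycl with TPK passed in TPMCa (adjusted p = 0.0137 and 0.0143) and in TPMR1 (0.0398 and 0.00530). DESeq2 called Mycl in TPMR1 against TPK (adjusted p = 0.00331) and not in TPMCa against TPK.

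Max, the partner that both the activators and the repressors need, had the smallest fitted difference of the 10 genes between the models with and without introduced Myc. It was at 141 and 77.9 CPM in TPK, 136 and 124 CPM in TPM, 132 and 71.5 CPM in TPMCa, and 104 and 75.0 CPM in TPMR1. TPK overlapped each of the other models, both TPM libraries were above both TPMR1 libraries, and within TPK and TPMCa the libraries differed by 1.81-fold and 1.84-fold. The mean of the 3 models differed from TPK by -0.05 (SE 0.33, 95% interval -0.85 to 0.75, edgeR adjusted p = 0.951), so the data leave room for a change of up to 0.85 on the log2 scale. The sign of this small value was not stable and turned positive under 4 of the alternatives that were run, including scaling by library size alone. Per kilobase of exon, Myc exceeded Max by 1.44-fold and 1.58-fold in the TPK libraries, by 7.51-fold and 18.9-fold in TPM, by 30.9-fold and 6.0-fold in TPMCa, and by 7.70-fold and 8.23-fold in TPMR1. All 6 libraries with introduced Myc were above both TPK libraries in this ratio of levels. The ratios use the union of exons, 2717 bases for Myc and 3598 for Max. The longest transcripts have 2338 and 1942 bases, so the order of Myc and Max within TPK depends on the length used.

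Among the repressors, Mxd1, which rises when epithelial and blood cells differentiate, was at 316 and 263 CPM in TPK and 374 and 187 CPM in TPM. It was at 247 and 92.8 CPM in TPMCa and at 16.9 and 127 CPM in TPMR1. TPM overlapped TPK, while both TPMCa and both TPMR1 libraries were below both TPK libraries. The TPMR1 libraries were also below those of TPM, overlapped TPMCa and differed from each other by 7.54-fold. TPMR1 differed from TPK by -2.00 (SE 0.93, 95% interval -4.23 to 0.22, edgeR adjusted p = 0.204) and from TPM by -1.96 (SE 0.93, edgeR adjusted p = 0.267). Without TPMR1 replicate 2, which leaves replicate 1 as the lone TPMR1 library, Mxd1 passed in both (-4.10 with edgeR adjusted p = 0.0244 and -4.05 with 0.0285), so this call rests on that library. In TPMR1 against TPK, 0 of the 10 members passed with both libraries in the edgeR fit, against 10.3% of all genes. There, 1 member (Mycl) and 30% of all genes had an unadjusted p under 0.05, DESeq2 called 1 (Mycl) and 24.8% of all genes, and the threshold of the study gave 1 member and 25.4% of all genes. The squamous markers, summed, were at 3.45 CPM in TPMR1 replicate 1 and 13.2 CPM in replicate 2. Neutrophil markers (4 genes) summed to 13.9 and 509 CPM in TPMR1 replicates 1 and 2, and to 2138 and 282 CPM in those of TPMCa. They summed to 629 and 658 CPM in TPK and 466 and 839 CPM in TPM. The part of these markers in the level of Mxd1 was not tested.

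Mxi1, a repressor of the same subfamily that can be induced by low oxygen, was at 68.2 and 78.4 CPM in TPK. It was at 95.6 and 118 CPM in TPM, 216 and 111 CPM in TPMCa, and 95.6 and 132 CPM in TPMR1. All 6 libraries with introduced Myc were above both TPK libraries, and TPMCa replicate 1 was highest, as it was for Myc. The mean of the 3 models exceeded TPK by 0.78 (1.71-fold, SE 0.31, 95% interval 0.03 to 1.52, edgeR adjusted p = 0.182). In TPMCa against TPK the difference was 1.16 (SE 0.37, edgeR adjusted p = 0.109, DESeq2 adjusted p = 0.0370). In that comparison 0 of 10 members passed in edgeR against 6.03% of all genes, 4 (Myc, Mycl, Mxi1 and Mlx) had an unadjusted p under 0.05 with 27.5% of all genes, and DESeq2 called 2 (Myc and Mxi1) with 21.3% of all genes. The threshold of the study gave 4 members and 23.1% of all genes.

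Mnt, the widely expressed repressor that serves as a general counterweight to Myc, was at 55.6 and 55.0 CPM in TPK. It was at 64.4 and 77.2 CPM in TPM, 75.9 and 58.8 CPM in TPMCa, and 65.3 and 60.6 CPM in TPMR1. It had the narrowest range of the 10 genes, with 1.40-fold from the lowest to the highest library. The 6 libraries were again above both TPK libraries, by a difference of 0.28 (SE 0.20, 95% interval -0.20 to 0.75, edgeR adjusted p = 0.435) that did not pass. In all, 3 of the 10 members (Myc, Mxi1 and Mnt) had the 6 libraries above TPK without overlap, as did 10% of all genes, and 0 of 10 had them below, as did 10.1% of all genes.

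Mxd4, a repressor linked to cells leaving the cell cycle, was at 48.2 and 44.7 CPM in TPK, 48.3 and 33.5 CPM in TPM, 60.5 and 75.0 CPM in TPMCa, and 53.8 and 64.9 CPM in TPMR1. The 4 libraries with a PI3K alteration were above the other 4, a separation seen upward in 1 of the 10 members and in 10% of all genes, and likewise chosen after the values were seen. TPMCa exceeded TPM by 0.73 (SE 0.28, 95% interval 0.05 to 1.40, edgeR adjusted p = 0.198) and TPMR1 exceeded TPM by 0.54 (SE 0.28, 95% interval -0.13 to 1.21, edgeR adjusted p = 0.310). Mxd3, which differs from the other Mxd genes in being tied to dividing cells, was the lowest of the repressors per kilobase of exon in all libraries but TPMR1 replicate 1, where Mxd1 was at 2.39 and Mxd3 at 2.52 CPM per kilobase. Its level was 7.32 and 4.15 CPM in TPK, 9.63 and 4.12 CPM in TPM, 10.4 and 11.1 CPM in TPMCa, and 5.96 and 12.3 CPM in TPMR1. Both TPMCa libraries were above those of TPK and TPM, the other models overlapped, and the mean of the 3 models differed from TPK by 0.61 (SE 0.54, 95% interval -0.66 to 1.89). Markers of cycling cells (6 genes) summed to 518 to 696 CPM in TPK, 596 to 733 CPM in TPM, 1184 to 1209 CPM in TPMCa and 964 to 1316 CPM in TPMR1, and their part in the levels of Mxd3 and Mxd4 was not tested.

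Mlx, the partner of the Mondo proteins, was at 46.7 and 63.9 CPM in TPK, 46.5 and 35.8 CPM in TPM, 19.4 and 32.1 CPM in TPMCa, and 49.0 and 28.1 CPM in TPMR1. Both TPMCa libraries were below both TPK libraries, with a difference of -1.10 (SE 0.41, 95% interval -2.07 to -0.13, edgeR adjusted p = 0.145). The TPM libraries were just below TPK, at 46.5 beside 46.7 CPM, and TPMR1 overlapped it. For the mean of the 3 models the difference was -0.68 (SE 0.32, edgeR adjusted p = 0.236). TPMR1 and TPMCa were also compared directly, and 0 of 10 members passed in edgeR, as did 0% of all genes, with 0 members at an unadjusted p under 0.05 (11.8% of all genes), 0 called by DESeq2 (5.03%) and 0 at the threshold of the study (10.5%). In the test for any difference among the 4 models, 0 of 10 passed in edgeR against 7.32% of all genes, while 2 (Myc and Mycl) had an unadjusted p under 0.05 with 27.9% of all genes, and DESeq2 called 2 (Myc and Mycl) with 29.8% of all genes.

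**Figure D2:**
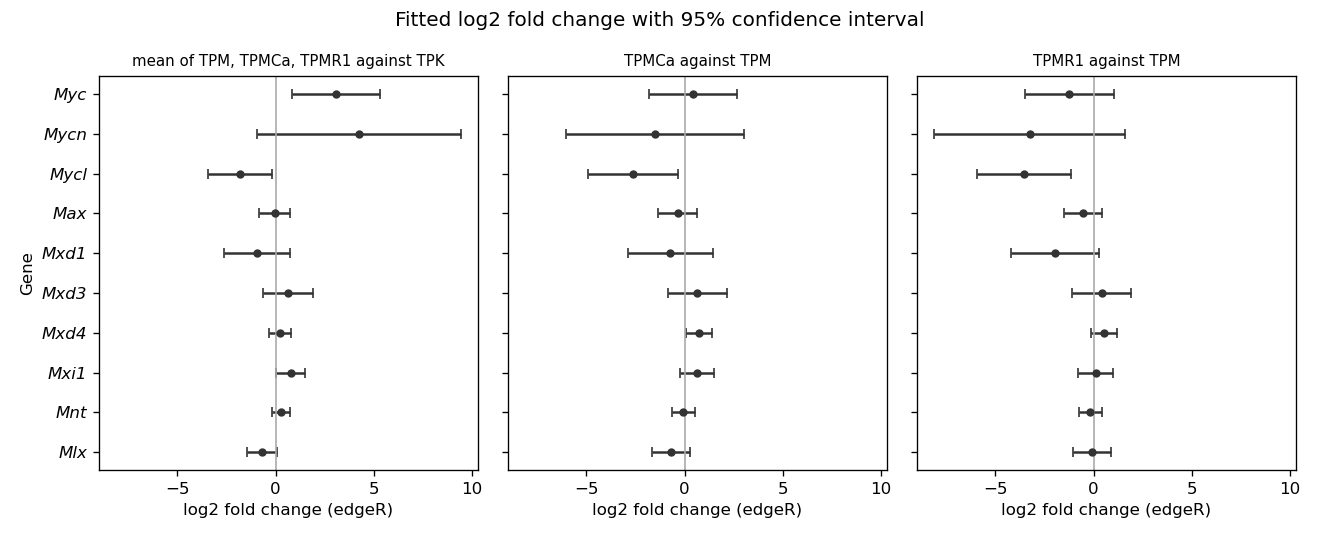
Fitted log2 fold change (points) with its 95% confidence interval (bars) from edgeR for the 10 genes in 3 comparisons, each with 0 on the x axis marked by a line. The interval of Myc, 0.85 to 5.33, lay above 0 in the comparison with TPK, and that of Mycl, -5.92 to -1.16, lay below 0 in TPMR1 against TPM, while those of Max and Mnt included 0 in all 3 panels.

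Levels were then set per kilobase of the union of exons, as a rough scale for setting genes side by side. The union exceeds the longest transcript unevenly, at 8483 against 4627 bases in Mxd4, 7072 against 4666 in Mxd1 and 2717 against 2338 in Myc. The length of the introduced Myc cDNA was not used, so ranks and shares hold for this scale only. Averaged over the 8 libraries, Myc ranked highest at 334 CPM per kilobase, followed by Max at 29.9, Mxd1 at 28.7, Mlx at 20.1, Mxi1 at 16.8, Mnt at 13.9, Mxd4 at 6.32, Mxd3 at 3.44, Mycl at 2.44 and Mycn at 0.617. The means of Max, Mxd1 and Mlx were closer to each other than their spread over libraries, which for Mxd1 went from 2.39 to 52.9 CPM per kilobase. In TPK, the model without introduced Myc, the means per kilobase were 45.3 for Myc, 40.9 for Mxd1, 30.4 for Max and 27.7 for Mlx. Myc and the single repressor Mxd1 were thus of like level on this scale, and their order depends on the length used. The repressors together were at 75.4 and 67.5 CPM per kilobase in the TPK libraries. Myc replicates of 56.5 and 34.1 spanned the Mxd1 replicates of 44.6 and 37.1 there.

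The Myc family (Myc, Mycn and Mycl) made up 30.4% and 24% of the summed level per kilobase of the 10 genes in the TPK libraries. The TPM libraries gave it 65.6% and 84.8%, the TPMCa libraries 88.9% and 56.7%, and the TPMR1 libraries 70.6% and 63.7%. The repressors (Mxd1, Mxd3, Mxd4, Mxi1 and Mnt) held 38.0% and 42.4% in TPK, and the TPM libraries gave them 20.6% and 8.51%, the TPMCa libraries 7.42% and 26.3%, and the TPMR1 libraries 12.5% and 23.4%. The summed level of the repressors itself was 75.4 and 67.5 CPM per kilobase in TPK. The TPM libraries had 90.6 and 66.0 CPM per kilobase, the TPMCa libraries 94.5 and 55.6, and the TPMR1 libraries 39.4 and 63.4. The shares thus separated TPK from the other models, whereas the summed repressor level of TPK lay within the range of TPM and TPMCa. Both TPMR1 libraries were below both TPK libraries in that summed level. The ratio of the Myc family to the repressors was 0.801 and 0.565 in TPK and between 2.16 and 12.0 in the 6 other libraries.

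**Figure D3:**
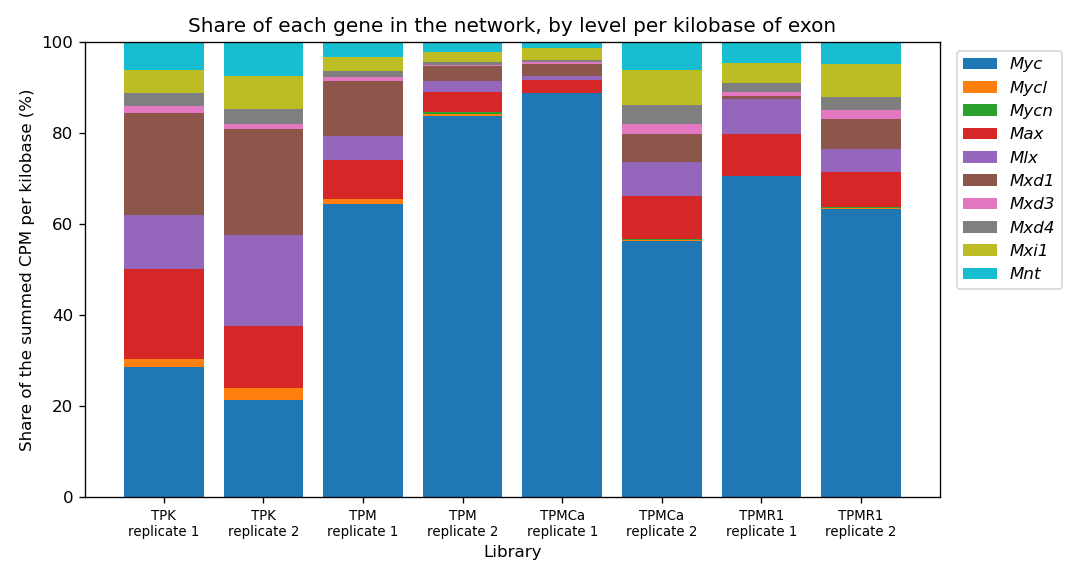
Share of each of the 10 genes in their summed level (CPM per kilobase of exon) in each of the 8 libraries, stacked to 100%. Myc took 28.5% and 21.4% in the TPK libraries and 56.3% to 88.8% in the libraries with introduced Myc.

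The make-up of the repressor group also varied. Mxd1 provided 59.2% and 55.0% of the summed repressor level per kilobase in TPK and 58.4% and 40% in TPM. It provided 37.0% and 23.6% in the TPMCa libraries but 6.06% and 28.4% in those of TPMR1. The 4 libraries with a PI3K alteration were below the other 4, with TPM replicate 2 at 40% and TPMCa replicate 1 at 37.0% almost touching.

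The wider network was represented by Mga, Mlxip and Mlxipl, and in the comparison with TPK 0 of these 3 passed in edgeR. Mga, a large factor that pairs with Max and acts in a repressive polycomb complex, was at 58.9 and 73.8 CPM in TPK, 86.6 and 90.1 CPM in TPM, 121 and 115 CPM in TPMCa, and 153 and 163 CPM in TPMR1. Its libraries were ordered by model with no overlap. This order was noted after the values were seen, and the share of all genes with such an order was not counted. The mean of the 3 models exceeded TPK by 0.83 (SE 0.19, edgeR adjusted p = 0.0501), a value at the threshold that passed with the size factors of DESeq2 (0.0481), without TPMR1 replicate 1 (0.0455) and without TPMR1 replicate 2 (0.0488). In TPMR1 against TPK, Mga was higher by 1.25 (SE 0.23, edgeR adjusted p = 0.0238). That call was lost without TPK replicate 1 (0.125), TPK replicate 2 (0.101), TPM replicate 1 (0.0569) or TPM replicate 2 (0.0609), and when only TPK and TPMR1 were fitted (0.0968).

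Mlxip, also called MondoA, which with Mlx senses glucose phosphate, was at 69.6 and 85.6 CPM in TPK and between 82.8 and 123 CPM in the other 6 libraries (0.30, SE 0.20, edgeR adjusted p = 0.389). Mlxipl, also called ChREBP, its relative in liver and fat, was at 6.34 and 2.31 CPM in TPK, 1.14 and 7.44 CPM in TPM, 9.50 and 5.73 CPM in TPMCa, and 111 and 12.3 CPM in TPMR1, so that TPMR1 replicate 1 stood far above the rest. TPMR1 differed from TPK by 3.83 (SE 1.30, edgeR adjusted p = 0.108), and from TPK by 4.67 with an adjusted p of 0.0337 when replicate 2 was left out and replicate 1 was the lone TPMR1 library. Of the Mondo targets Txnip and Arrdc4, 0 of 2 passed in the comparison of the 3 models with TPK. In TPMR1 against TPK 1 was called, Arrdc4, which was lower, beside 10.3% of all genes called in either direction. Arrdc4, an arrestin family gene named here after its value was seen, was at 55.4 and 50.8 CPM in TPK, 44.5 and 37.1 CPM in TPM, 45.7 and 30.2 CPM in TPMCa, and 4.61 and 14.2 CPM in TPMR1. All 6 libraries were thus below TPK, as in 10.1% of all genes, and those of TPMR1 were lowest. TPMR1 differed from TPK by -2.50 (SE 0.55, edgeR adjusted p = 0.0381), a call lost without any 1 of the TPK, TPM or TPMCa libraries (0.0616 to 0.151) and when only TPK and TPMR1 were fitted (0.127). For the 3 models together the difference was -1.12 (SE 0.40, edgeR adjusted p = 0.146), and it passed without TPMR1 replicate 2 (-1.47, adjusted p = 0.0152).

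The genes around the network were taken as lists, chosen with earlier results of these data known, and described by counts. Of 65 genes known to be activated by Myc, 7 rose and 1 fell in the models with introduced Myc against TPK in edgeR, where 1.18% of all genes rose and 6.10% fell. Their median difference was 0.62, against -0.01 for all genes tested, and 60 of the 65 differences were above 0. Of the 65, 37 (56.9%) had all 6 libraries above both TPK libraries, beside 10% of all genes. Among the lists described below, the same held for 7 of 18 Myc cofactors (38.9%) and 5 of 20 turnover genes (25%). It held for 2 of 16 corepressors (12.5%) and 0 of 7 genes repressed by Myc. The single gene that fell was Las1l, a factor of ribosomal RNA processing named here after its value was seen, at 154 and 147 CPM in TPK and 61.3 to 119 CPM in the other libraries (-0.92, SE 0.17, edgeR adjusted p = 0.0268). Las1l lost this call without any 1 of the TPK, TPM or TPMCa libraries (0.0614 to 0.194) and with scaling by library size alone (0.0544). The counts of calls were sensitive to libraries: 0 rose without TPK replicate 1 or replicate 2, 1 without TPM replicate 1, TPM replicate 2 or TPMCa replicate 1, 5 without TPMCa replicate 2, 13 without TPMR1 replicate 1 and 10 without TPMR1 replicate 2, while the median stayed between 0.45 and 0.73. DESeq2 called 21 higher and 1 lower, beside 18.9% of all genes in either direction. The cycling markers were at 518 to 696 CPM in TPK, 596 to 733 CPM in TPM, 1184 to 1209 CPM in TPMCa and 964 to 1316 CPM in TPMR1. They were thus above TPK in TPMCa and TPMR1 and overlapped it in TPM. In TPM against TPK their median difference was 0.007, while that of the list was 0.45, with 57 of 65 genes above 0. The part of the cycling markers in the list was not tested.

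The 4 genes of the list with the largest change among those that passed were Slc19a1, Rrp9, Hspd1 and Srm. Slc19a1, the carrier of reduced folate, was at 21.3 and 18.6 CPM in TPK, 44.5 and 72.1 CPM in TPM, 89.2 and 77.9 CPM in TPMCa, and 68.6 and 72.0 CPM in TPMR1 (1.81, SE 0.27, edgeR adjusted p = 0.0130). Rrp9, a component of the U3 particle that processes ribosomal RNA, was at 26.6 and 15.9 CPM in TPK and 43.5 to 85.0 CPM in the others (1.65, SE 0.31, edgeR adjusted p = 0.0280). Hspd1, the mitochondrial chaperonin, was at 320.4 and 238 CPM in TPK and 479 to 1276 CPM in the others (1.63, SE 0.30, edgeR adjusted p = 0.0259). Srm, which makes spermidine, was at 111 and 92.5 CPM in TPK, 129.7 and 140.4 CPM in TPM, and 288 to 364 CPM in TPMCa and TPMR1 (1.26, SE 0.22, edgeR adjusted p = 0.0204). All 4 were above TPK in 6 of 6 libraries, which adds no separate support, since they were picked by their change in this comparison. None kept its call when either TPK library was left out, where the adjusted p of the 4 lay between 0.0688 and 0.234. Rrp9, Hspd1 and Srm also lost it without TPM replicate 1, TPM replicate 2 or TPMCa replicate 1 (0.0501 to 0.0860), and Rrp9 without TPMCa replicate 2 (0.0518).

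Of 58 Myc-activated genes with a promoter window, 16 (27.6%) held CACGTG, beside 8.09% of all genes with one. Of the 4 named genes, all but Srm had a window, and Hspd1 held the hexamer, 80 bases before the start of one of its transcripts, and is shown as the named gene with the element.
Hspd1, chr1:55088298-55088343 (-): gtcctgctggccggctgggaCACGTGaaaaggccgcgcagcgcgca

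**Figure D4:**
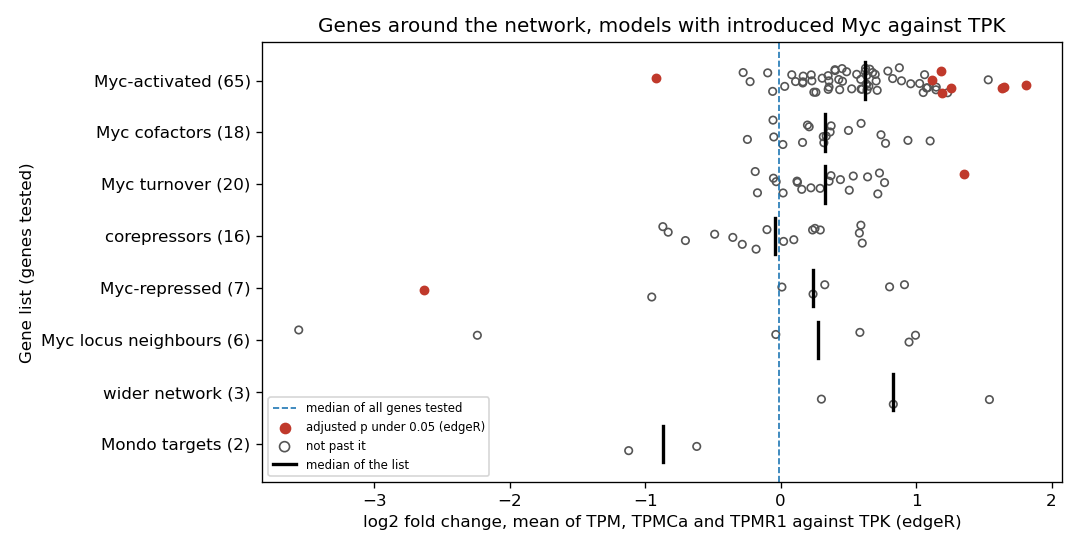
Log2 fold change of each gene of 8 lists in the mean of TPM, TPMCa and TPMR1 against TPK (edgeR), 1 point a gene, filled where the adjusted p was under 0.05, with the median of each list as a bar and the median of all genes tested (-0.01) as a dashed line; vertical scatter within a row only separates points. The median of the Myc-activated list was 0.62, with 7 filled points above 0 and 1 below.

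Smaller numbers passed elsewhere in the same comparison, where 7.28% of all genes passed, 1.18% higher and 6.10% lower. Of 20 genes that control the turnover of Myc protein, 1 rose, Skp2, a subunit of a ubiquitin ligase that also acts on cell cycle inhibitors. It was at 15.2 and 14.6 CPM in TPK, 19.4 and 18.8 CPM in TPM, 47.8 and 60.2 CPM in TPMCa, and 42.0 and 65 CPM in TPMR1 (1.35, SE 0.27, edgeR adjusted p = 0.0338). The TPM libraries were nearer to TPK than to the models with a PI3K alteration, and TPM differed from TPK by 0.36 (SE 0.31). The call was lost without any 1 of the TPK, TPM or TPMCa libraries (0.0671 to 0.274).

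Of 7 genes repressed by Myc, 1 fell, Cdkn2b, an inhibitor of the cell cycle kinases Cdk4 and Cdk6. It was at 116 and 93.6 CPM in TPK, 74.8 and 29.6 CPM in TPM, 10.4 and 5.73 CPM in TPMCa, and 15.1 and 8.0 CPM in TPMR1 (-2.63, SE 0.40, edgeR adjusted p = 0.0147). The call was lost without TPK replicate 1 (0.103) or TPK replicate 2 (0.0964). The median of these 7 genes was 0.24, opposite in sign to Cdkn2b. Of 18 cofactors of Myc 0 passed with a median of 0.33, and of 16 corepressors used by the Mxd proteins and Mnt 0 passed with a median of -0.04.

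Of the 6 genes tested around the Myc locus, 0 passed in this comparison. In the test for any difference among the models 1 passed, Adcy8 (edgeR adjusted p = 0.0463), beside 7.32% of all genes. Adcy8, an adenylyl cyclase of nerve cells, had 8 and 29 counts in TPK, 78 and 61 counts in TPM, 0 counts and 1 count in TPMCa and 0 counts in both TPMR1 libraries. Pvt1 is the long noncoding RNA next to the resident Myc gene and is not part of the Myc cDNA. It was at 5.14 and 6.26 CPM in TPK, 7.34 and 6.75 CPM in TPM, 19.1 and 14.9 CPM in TPMCa, and 11.3 and 13.3 CPM in TPMR1. All 6 libraries were above TPK, as in 10% of all genes, by a difference of 0.996 on the log2 scale (SE 0.34, edgeR adjusted p = 0.134, DESeq2 adjusted p = 0.00619). TPM, where Myc was 10.3-fold above TPK in the fit, differed in Pvt1 by 0.31 (SE 0.40).

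The spread of Myc within models was set beside its targets. In TPMCa, where Myc was 9.51-fold higher in replicate 1, 49 of the 65 Myc-activated genes were higher in replicate 1, with a median difference of 0.23. In TPM, where Myc was 2.29-fold higher in replicate 2, 10 of the 65 were higher in replicate 1 (median -0.22). In TPK and TPMR1, Myc was 1.65-fold and 1.30-fold higher in replicate 1, and 54 (median 0.24) and 24 (median -0.11) of the 65 were higher there. The library with more Myc was thus the one with more of the list in TPK, TPM and TPMCa, and not in TPMR1, and in each of these models only 1 pair of libraries was compared. The size of the shift in the list did not follow the size of the gap in Myc, with 0.23 at 9.51-fold and 0.24 at 1.65-fold. Over the 8 libraries, the median deviation of the list from its mean was -0.25 and -0.55 in TPK, and TPM followed at -0.10 and 0.12, TPMR1 at 0.16 and 0.28 and TPMCa at 0.33 and 0.07.

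**Figure D5:**
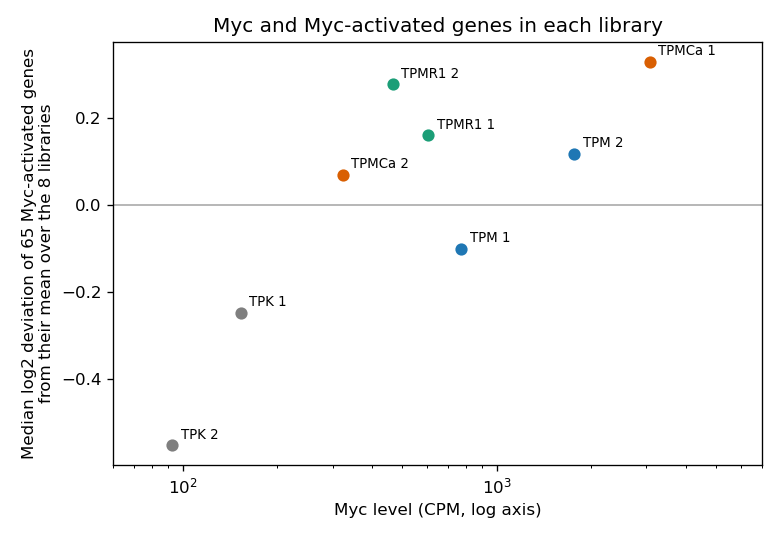
Level of Myc (CPM, log axis) against the median log2 deviation of 65 Myc-activated genes from their mean over the 8 libraries, 1 point a library, labelled by model and replicate. The TPK libraries lay lowest on both axes (-0.25 and -0.55), whereas TPMCa replicates 1 and 2 differed widely in Myc (3075 and 324 CPM) and little in the list (0.33 and 0.07).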

How the data were processed

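Raw read counts per gene were deposited by the authors for 8 polyA RNA libraries (Trizol extraction, Illumina), with reads aligned to mm10 by STAR. The counter, annotation, strand setting and versions were not given in the sources used here, and the TPM columns carry a slightly longer model name. The deposited table normalized with DESeq2 was not used, and values of some further edited or introduced genes are not given.

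Counts were fitted with edgeR 4.0.16 (R 4.3.3; TMM, filterByExpr, glmQLFit, glmQLFTest) with the model as the only term, and p-values were adjusted by Benjamini-Hochberg over all 15875 genes tested, with a call at an adjusted p under 0.05. Confidence intervals are at 95%, fold changes are on the log2 scale, and SE was the fold change over the root of the F statistic. List deviations per library used log2(CPM + 0.5). Alternatives were DESeq2 1.42.0, other scaling and filters, a replicate block, fits of only the models compared and each library left out. The threshold of the study given in the report was applied to the edgeR values. The fit was tested on simulated data. Depth was 15748396 to 26943611 counts per library, and replicates differed by far more than sampling noise (chi-square per degree of freedom 115 to 372). Gene positions and exon lengths came from GENCODE for GRCm38. Promoter letters came from RefSeq. Replicate numbers did not pair libraries, since deviations of libraries with the same number correlated at -0.07 to -0.01.

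The members and lists were chosen with earlier results of these data known. From each list up to 4 genes past the test were named, by size of change, and Pvt1, Mga, Mlxip and Mlxipl were named whatever their values.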

Additional observations from a re-analysis of the deposited data

How the results depend on the processing

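With 2 libraries a model, a difference of Myc of 8.52-fold did not pass in edgeR and passed in DESeq2. Mycn had 2 counts and 1 count in TPK but 0 and 193 counts within TPM, and its counting intervals against TPK lay above 1. The number of members called, 0 of 10 in each comparison in edgeR, stayed at 0 with the size factors of DESeq2, library size alone, both other filters and the replicate block. DESeq2 called 1 in the 3 models with introduced Myc against TPK, 1 in TPM against TPK, 2 in TPMCa against TPK, 1 in each of TPMR1 against TPK, TPMCa against TPM and TPMR1 against TPM, and 2 in the test of any difference. The threshold of the study, on the edgeR values, gave 2, 2, 4, 1, 1 and 1 in the same 6 comparisons of groups. Fitting only the models compared gave 1 in TPMCa against TPK and 1 in TPMCa against TPM, Mycl in both. With 1 library left out, the number ranged from 0 to 1 in the 3 models against TPK, in TPMCa against TPK, in TPMCa against TPM, in TPMR1 against TPMCa and in the test of any difference, from 0 to 2 in TPMR1 against TPK and TPMR1 against TPM, and was 0 throughout in TPM against TPK. The lone library of a model is then assumed to vary like the other models.

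The number of Myc-activated genes called higher, 7, was 21 in DESeq2 and 4 with the replicate block, and 0 to 13 with 1 library left out, an alternative chosen after seeing the data. Since the numbers do not pair the libraries, the replicate block, which also ended the calls of Rrp9 (adjusted p = 0.0568), Skp2 (0.0610), Las1l (0.0596) and Arrdc4 in TPMR1 against TPK (0.0678), is given only as a value. Max turned from -0.05 to 0.070 with library size alone, 0.45 without TPK replicate 1, 0.07 without TPMCa replicate 2 and 0.02 without TPMR1 replicate 2, with a range of -0.42 to 0.45 over libraries left out. Mycn in TPM against TPK turned to -3.83 without TPM replicate 2 and was 6.83 without TPM replicate 1. Scaling by library size alone moved the median of all genes from -0.01 to 0.11 in the 3 models against TPK. Of the fold changes under alternatives, 632 kept direction and side of the threshold, 40 newly passed, 49 no longer passed and 5 changed sign, and the cause was not tested. The share of the Myc family in plain CPM, without length scaling, was 17.8% in TPK and 54.6% in TPMR1.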
